A study of Rattus norvegicus and Ovis aries with 113 samples.

Results

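The glutathione peroxidase family has 8 genes, GPX1 to GPX8, and their RNA was measured in brain, sperm and ovary samples of sheep and rats. The members were taken by upper-cased symbol from the count tables, and all 8 were found among 38675 genes of the rat table and 31304 genes of the sheep table. The study set brain against sperm or ovary by RNA sequencing of 113 libraries. From 5 post-pubertal male sheep, numbered 687, 688, 690, 694 and 699, there were 10 dissected brain regions of the same hemisphere and 1 sperm library each, which gave 55 libraries. From Sprague Dawley rats there were whole brains and seminal fluid of 15 post-pubertal males, and whole brains and ovaries of 14 females, which gave 58 libraries. No treatment was given to any animal, and the labels give no genotype beyond the rat strain. Age is given only as post-pubertal, for the males. Sheep RNA was extracted with TRIzol and made into libraries with a Kapa kit, and rat RNA was extracted with a Zymo kit and made into libraries with a Watchmaker kit. Species and preparation of the libraries therefore cannot be told apart. All samples are bulk tissue or fluid, so fewer cells of a type and less RNA per cell cannot be told apart in any value below.

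Glutathione peroxidases reduce hydrogen peroxide and organic hydroperoxides to water or alcohols, most of them at the expense of reduced glutathione. GPX1 to GPX4 carry selenocysteine, the selenium analogue of cysteine, in the active site and so depend on selenium supply, while GPX5, GPX7 and GPX8 carry cysteine there, as does rodent GPX6. GPX4 is the member that reduces phospholipid hydroperoxides within membranes. In brain it protects neurons from ferroptosis, a cell death driven by lipid peroxidation, and in maturing sperm it is also a structural protein of the midpiece.

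The promoters of 4 rat members are shown: Gpx2 and Gpx3 for a wide spread between species and sheep, Gpx4 and Gpx6 for the rat sperm libraries in which both were high. They were not picked by the size of the rat fold changes. Gpx1 and Gpx7 (3.03 and 3.38 in ovary, 2.75 and 2.98 in sperm, log2 over brain) differed more than Gpx3 (1.89 and 1.66). Each run is the 250 bases before the annotated start, read 5′ to 3′ on the strand of the gene, from RefSeq on GRCr8. Capitals mark matches, on either strand, to GGGCGG (GC box), CCAAT and TATAAA (the boxes of these names), TGACG (part of the cyclic AMP response element) and TGACNNNGC (core of the antioxidant response element).
Gpx2, chr6:101230034-101230283, minus strand: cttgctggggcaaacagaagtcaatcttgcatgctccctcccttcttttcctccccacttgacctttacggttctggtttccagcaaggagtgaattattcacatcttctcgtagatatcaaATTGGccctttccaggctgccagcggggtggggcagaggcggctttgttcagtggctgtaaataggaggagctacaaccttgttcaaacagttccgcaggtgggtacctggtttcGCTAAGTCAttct
Gpx3, chr10:39529085-39529334, plus strand: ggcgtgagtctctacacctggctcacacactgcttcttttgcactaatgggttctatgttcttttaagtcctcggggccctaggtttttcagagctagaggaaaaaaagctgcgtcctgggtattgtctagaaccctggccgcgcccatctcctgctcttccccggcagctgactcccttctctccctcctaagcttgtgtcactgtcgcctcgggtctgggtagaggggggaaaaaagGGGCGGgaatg
Gpx4, chr7:10303630-10303879, minus strand: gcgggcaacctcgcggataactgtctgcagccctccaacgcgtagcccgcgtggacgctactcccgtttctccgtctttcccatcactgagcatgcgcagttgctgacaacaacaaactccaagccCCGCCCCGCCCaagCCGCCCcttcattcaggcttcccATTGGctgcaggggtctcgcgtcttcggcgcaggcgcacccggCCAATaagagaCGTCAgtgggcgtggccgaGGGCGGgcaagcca
Gpx6, chr17:48111817-48112066, minus strand: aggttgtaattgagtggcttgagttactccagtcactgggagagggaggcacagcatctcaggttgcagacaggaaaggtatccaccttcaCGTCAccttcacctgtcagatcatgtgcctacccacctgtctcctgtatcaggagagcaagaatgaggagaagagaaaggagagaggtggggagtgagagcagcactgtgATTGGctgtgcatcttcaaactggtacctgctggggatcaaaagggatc

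The promoter table held 9 starts of 7 members, 3 of them for Gpx4, and no entry for Gpx8. The Gpx4 window before its most upstream start held 4 GC boxes, of which a pair overlap, 2 CCAAT boxes and 1 TGACG. A GC box stood 11 bases before the Gpx3 start. The Gpx2 window held a CCAAT box and, 13 bases before the start, the TGACNNNGC core. In the Gpx6 window a CCAAT box lay 49 bases and a TGACG 159 bases before the start. The same windows of 33469 rat promoters held GGGCGG in 30.5%, CCAAT in 34.0%, TATAAA in 12.9%, TGACG in 18.2% and TGACNNNGC in 10.1%, against 5, 5, 1, 4 and 1 of the 9 member starts. These matches are a description of the letters only. On GRCr8 the rat genes lie on 7 chromosomes, with Gpx6 (chr17:48104197-48111816) and Gpx5 (chr17:48131853-48138801) as neighbours 20036 bases apart. Pseudogenes are annotated for Gpx4 (4), Gpx2 (2) and Gpx8 (1), none of them a row of the count table, so reads from near-identical copies make the values of these 3 genes uncertain.

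In units of 1000000 counts, the library totals were 38.2 to 119 in rat brain, 50.5 to 60.3 in ovary, 46.7 to 72.4 in sheep brain and 13.7 to 65.1 in sperm, the same rounded range in both species. Rat brain libraries 1 and 4 stood apart, with 86.9% and 83.1% of counts in ribosomal RNA-like entries, as did rat sperm libraries 16 and 17, in which only 375 and 358 genes had 1 to 5 counts. The number of members called in each rat comparison was the same without either pair of libraries. Levels below are counts per 1000000 (CPM) scaled by trimmed mean of M values (TMM) factors over all libraries of the species. A level is compared between samples of 1 gene, never between genes, since it is not divided by gene length. A gene was called between tissues at an adjusted p below 0.05 and a log2 fold change of at least 1 in either direction by edgeR's quasi-likelihood test with Benjamini-Hochberg adjustment over all genes. Ribosomal RNA-like entries took 22.4 to 85.2% of the counts in sheep sperm, against 3.89 to 14.6% in sheep brain. Late spermatid and sperm markers stood above brain in every sperm library of both species (summed level 362 to 29657 in rat sperm, 42.7 to 56.3 in male brain; 193 to 6839 in sheep sperm, 21.1 to 66.0 in sheep brain). Sheep sperm also held neutrophil markers (12796 to 141380, at most 9.16 in brain) and squamous epithelium markers (3891 to 75740, at most 9.60 in brain). Their epididymal markers were at 20.6 to 32.9 (at most 1.60 in brain). Rat sperm held epididymal markers (138 to 907, at most 1.28 in brain) and squamous markers (5.51 to 194, at most 11.3 in male brain). The epididymal sums rest on part of the list, with 4 of 9 genes at a mean of 1 CPM or more in rat sperm and 5 of 8 in sheep sperm. For neutrophil markers in sheep sperm it was also 5 of 8. Ovaries held granulosa cell markers at 1407 to 5162 and theca or luteal markers at 6226 to 15224.

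In rats, RNA of 5 members was higher in sperm than in male brain and RNA of 5 was higher in ovary than in female brain, and 4 of these (Gpx1, Gpx2, Gpx3 and Gpx7) were higher in both. Gpx4 was called in sperm and not in ovary, Gpx8 in ovary and not in sperm, and none was called lower. Gpx5 and Gpx6 had too few counts to be tested. Among all genes, 27.7% were called higher and 31.5% lower in sperm than in brain, and 27.7% were called higher and 29.2% lower in ovary than in brain. The plot of member levels by rat library shows every value.

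**Figure D1:**
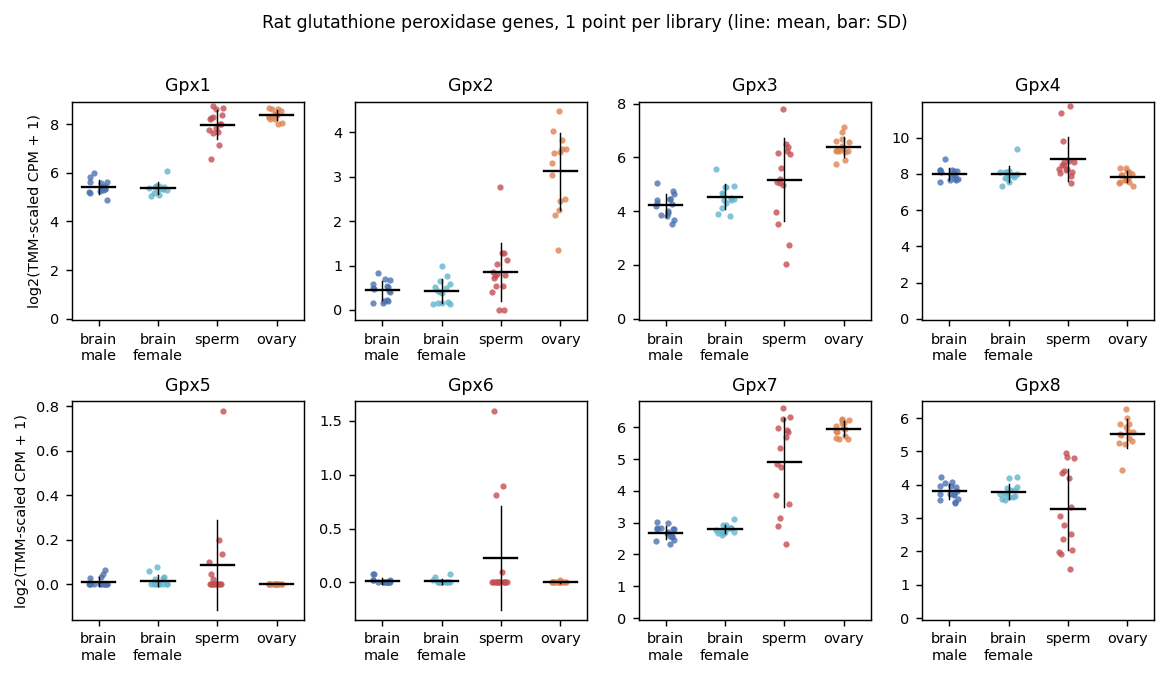
Levels of the 8 members in each rat library (vertical axes, log2 of TMM-scaled CPM + 1, a panel per gene) in male brain, female brain, sperm and ovary, with points for libraries, lines for means and bars for SD. Ovary lies above brain without overlap for Gpx1, Gpx2, Gpx3, Gpx7 and Gpx8 (among all genes tested, 26.1% did so), while sperm libraries spread from 178 to 3487 CPM for Gpx4.

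Gpx1 encodes the cytosolic enzyme that removes hydrogen peroxide in most cells. Its level in male brain was lowest at 28.6, median 41.1 and highest at 63.0 CPM, and in sperm 92.3, 255 and 424 CPM. Every sperm library was above every male brain library, the only member of which this held, and among all genes tested it held for 8.61%. In log2 units sperm exceeded brain by 2.75 ± 0.16 (SE; 15 against 15 libraries; edgeR adjusted p = 2.57e-16). In female brain the level was 31.8, 39.4 and 66.4 CPM and in ovary 259, 326 and 406 CPM. Ovaries and brains did not overlap, and the log2 fold change was 3.03 ± 0.09 (edgeR adjusted p = 1.07e-23).

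Gpx2 encodes the selenoenzyme best known from the lining of the gut and other epithelia. It was near the limit of detection in brain, at 0.112, 0.381 and 0.782 CPM in males (lowest, median, highest) and 0.0917, 0.338 and 0.972 CPM in females. Ovaries held 1.55, 9.70 and 21.1 CPM, all above every brain. The ovary log2 fold change of 4.78 ± 0.39 was the largest of the family in that comparison (edgeR adjusted p = 9.43e-13). In sperm the level ran from 0 to 5.82 CPM with a median of 0.732, from 798 counts in 13 of 15 libraries. Sperm overlapped brain, library 15 was the highest and libraries 16 and 17 were at 0. The sperm log2 fold change of 1.62 ± 0.51 passed the test (edgeR adjusted p = 0.00515), but with a replicate block for the male it was 1.14 (adjusted p = 0.0987).

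Gpx3 encodes the secreted enzyme of blood plasma and other extracellular fluids. Male brain held 10.4, 18.4 and 31.7 CPM and female brain 13.3, 21.0 and 47.0 CPM. Ovaries held 52.9, 77.4 and 139 CPM, above all brains, with a log2 fold change of 1.89 ± 0.16 (adjusted p = 2.45e-12 by edgeR). Sperm held 3.07, 35.2 and 220 CPM. Sperm libraries 7, 8 and 14, at 3.07, 5.71 and 10.3 CPM, were below every male brain, while library 15 was above every ovary. The sperm log2 fold change was 1.66 ± 0.38 (edgeR adjusted p = 2.31e-04).

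Gpx4 was far higher in 3 sperm libraries than in the other 12. Male brain held 187, 256 and 460 CPM, female brain 162, 246 and 664 CPM and ovary 160, 231 and 319 CPM. Ovary and brain overlapped throughout, and the log2 fold change was -0.19 ± 0.15 (edgeR adjusted p = 0.232). In sperm, libraries 7, 14 and 3 held 3487, 2636 and 906 CPM, while the other 12 lay between 178 and 419 CPM, inside the range of male brain but for the lowest. Library 7, the highest, is also the one with only 663 genes at 1 to 5 counts. The sperm log2 fold change was 1.70 ± 0.41 (edgeR adjusted p = 4.51e-04). It was 0.36 (adjusted p = 0.0187) without libraries 3, 7 and 14, 0.83 with the replicate block, 0.52 by limma voom and 0.24 by DESeq2, none of them called. The same libraries were among the highest in late spermatid and sperm markers, with a summed level of 21075 in library 7, 29657 in library 14 and 9363 in library 3. Library 10, at 8963 in those markers, held Gpx4 within the range of the 12. Since libraries 3, 7 and 14 are the highest in Gpx4 itself, leaving them out lowers the fold change by construction. The part of the markers in the Gpx4 result was not tested.

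**Figure D2:**
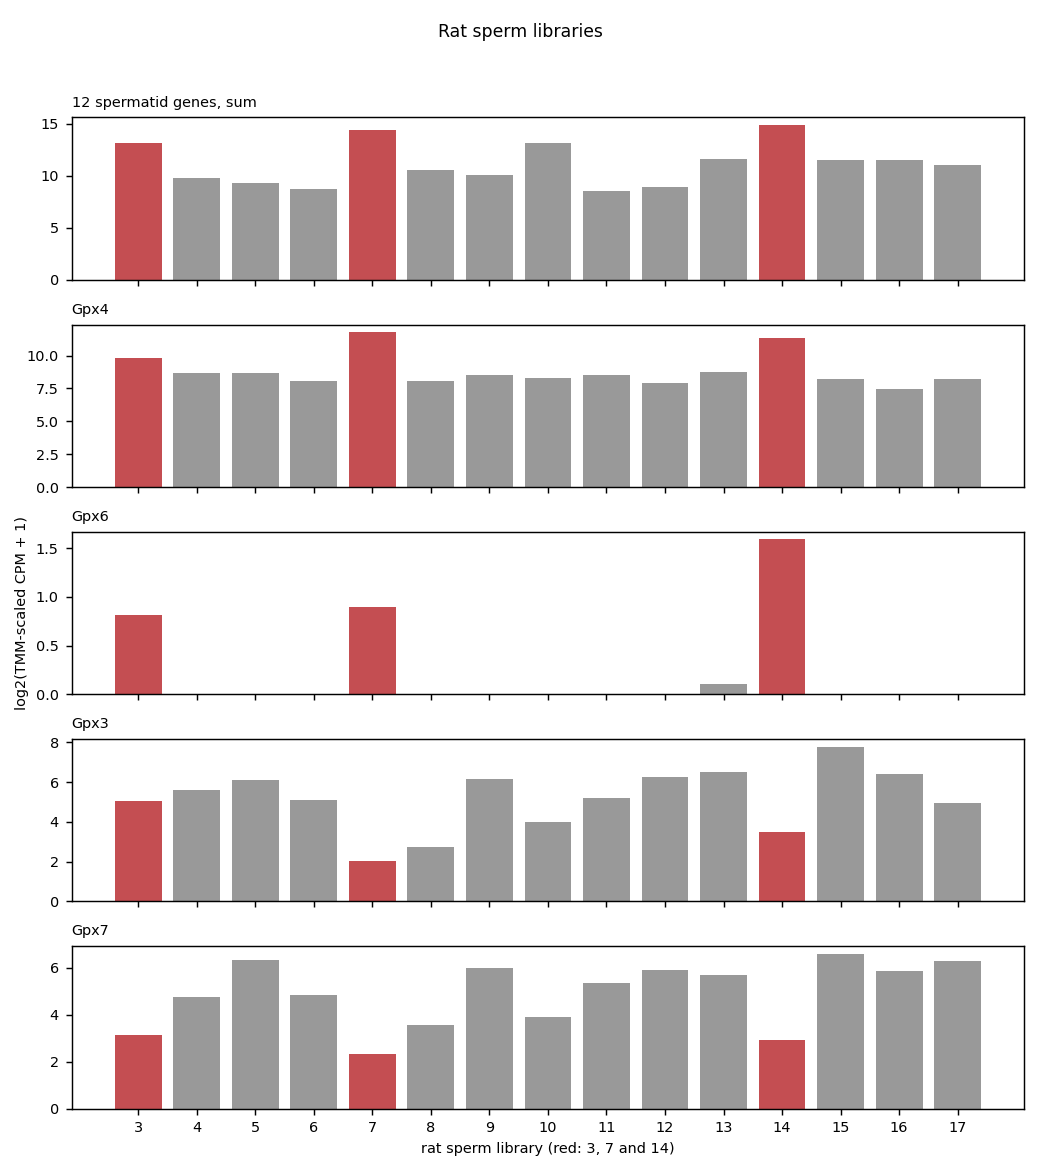
Levels (vertical axes, log2 of TMM-scaled CPM + 1) of the summed late spermatid markers and of Gpx4, Gpx6, Gpx3 and Gpx7 in each of the 15 rat sperm libraries (horizontal axis), with libraries 3, 7 and 14 in red. Libraries 3, 7 and 14 hold the highest Gpx4 values, 906, 3487 and 2636 CPM, and the lowest Gpx7 values, 7.90, 4.04 and 6.51 CPM.

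Gpx7 and Gpx8 encode peroxidases of the endoplasmic reticulum (ER), which use peroxide to oxidize protein disulfide isomerases during protein folding. For Gpx7, male brain held 4.07, 5.46 and 7.14 CPM and sperm 4.04, 39.5 and 95.9 CPM. The sperm libraries with the lowest Gpx7, at 4.04, 6.51 and 7.90 CPM, were 7, 14 and 3, those with the highest Gpx4. Library 14 lay within the male brain range, library 7 just below it and library 3 above it. In log2 units sperm exceeded brain by 2.98 ± 0.34 (edgeR adjusted p = 2.92e-09). Epididymal markers summed to 298, 138 and 390 in libraries 7, 14 and 3, within 138 to 907 over all 15 with a median of 533. By the mean of log2(CPM + 1) over the list genes these libraries were at 1.09, 1.77 and 1.46, against 1.60 on average over all 15. Library 14 was thus lowest in the sum but above the average by that mean. Squamous epithelium markers summed to 11.3, 34.9 and 13.8 in libraries 7, 14 and 3. The range over all 15 was 5.51 to 194 with a median of 74.1, and male brain held at most 11.3. The part of either marker set in the Gpx7 values was not tested. Female brain held 5.11, 5.90 and 7.71 CPM of Gpx7 and ovary 48.7, 61.4 and 75.6 CPM, with no overlap and a log2 fold change of 3.38 ± 0.08 (adjusted p = 8.86e-27 by edgeR).

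Gpx8 was called higher in ovary and not in sperm. Male brain held 9.96, 12.3 and 17.7 CPM and sperm 1.77, 7.40 and 29.7 CPM. Sperm libraries lay on both sides of the brain range, and the log2 fold change of -0.02 ± 0.33 did not pass the test (edgeR adjusted p = 0.955). Its sign turned with upper quartile scaling (0.093), without ribosomal RNA-like entries (0.0069) and without sperm libraries 3, 7 and 14 (0.23). Female brain held 10.5, 12.4 and 17.6 CPM and ovary 20.6, 46.2 and 75.7 CPM, with no overlap and a log2 fold change of 1.88 ± 0.13 (adjusted p = 1.03e-14 by edgeR). Markers of mural and meningeal cells, a list that includes COL1A1, DCN and LUM, summed to 1837 to 4073 in ovary and 43.3 to 110 in female brain. Endothelial markers summed to 274 to 674 and 120 to 183. Their part in the ovary values was not tested.

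Gpx5 and Gpx6 were all but absent from these rat samples. Gpx5 encodes a secreted enzyme made mainly by the epididymis. It had 47 counts in 6 of 15 sperm libraries, 28 of them in library 5, 17 counts in 9 of 29 brains and 0 in the 14 ovaries, where 3 counts over the group would have been 0.00387 CPM. The epididymal markers, at 138 to 907, were present in the same sperm libraries. Gpx6 encodes a peroxidase known from olfactory epithelium. It had 228 counts in 4 sperm libraries, 122 in library 14, 53 in library 7, 49 in library 3 and 4 in library 13, against 16 counts in 8 of 29 brains and 1 count in the ovaries. In CPM these sperm libraries were at 2.01, 0.860, 0.752 and 0.0722, and the first 3 are those with the highest Gpx4. Neither gene passed the low-count filter, so no fold change was fitted.

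Ovary and rat sperm differed in 3 members, although tissue and sex cannot be told apart here. Of all genes, 27.9% were called higher and 22.9% lower in ovary. Gpx2 was higher in ovary by 3.08 ± 0.54 and Gpx8 by 1.95 ± 0.35 on the log2 scale (edgeR adjusted p = 9.73e-06 and 1.57e-05). Gpx4 was lower in ovary by a log2 fold change of -1.89 ± 0.45 (adjusted p = 4.76e-04 by edgeR), which was -0.69 without sperm libraries 3, 7 and 14, -0.60 by DESeq2 and -0.51 by limma voom, and then not called. Gpx1 (0.29 ± 0.13, edgeR adjusted p = 0.0418) was under the size limit and turned to -0.11 without those libraries. Gpx3 (0.62, adjusted p = 0.144) and Gpx7 (0.58, adjusted p = 0.111) did not pass. Ovary and sperm overlapped for all 8 members, while among all genes tested 24.3% did not overlap.

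Between female and male rat brains, 0 of 6 members tested were called by edgeR, and 0 by DESeq2. Of all genes 0.0826% were called higher and 0.0972% lower in females. Gpx3 was the 1 member with an unadjusted edgeR p below 0.05, with a log2 fold change of 0.34 ± 0.16 (p = 0.0455, adjusted p = 0.491). Its level was 23.4 ± 8.52 CPM (SD, 14 females) and 18.4 ± 5.76 CPM (SD, 15 males). The other 5 log2 fold changes lay between -0.11 and 0.11.

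In sheep, RNA of GPX1, GPX2, GPX3, GPX5, GPX6 and GPX7 was called higher and RNA of GPX8 lower in sperm than in the mean of the 10 brain regions, 7 of 8 members tested, with GPX2 furthest above brain. Of all genes 33.1% were called higher and 41.1% lower. The fit used group only, so the 50 brain libraries of 5 animals counted as separate samples. The split of all genes moved with the scaling, from 7239 higher and 8976 lower with TMM to 8907 and 6980 with upper quartile factors and 9913 and 8118 by DESeq2. Upper quartile factors moved the median of all genes by 0.73, DESeq2 by 0.26 and relative log expression (RLE) factors by 0.25 on the log2 scale. The TMM factors of the sperm libraries were 0.124 to 0.343, which raised their scaled levels over plain totals. On plain library totals the mean levels of GPX1, GPX4, GPX5 and GPX7 were lower in sperm than in brain (31.7 against 54.6, 32.4 against 155, 0.172 against 0.219 and 0.997 against 2.03 CPM). The directions of these 4 therefore depend on the scaling, whereas GPX2, GPX3 and GPX6 were higher and GPX8 lower in the means on both scales. The plot of sheep levels on the TMM and plain scales shows every library.

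**Figure D3:**
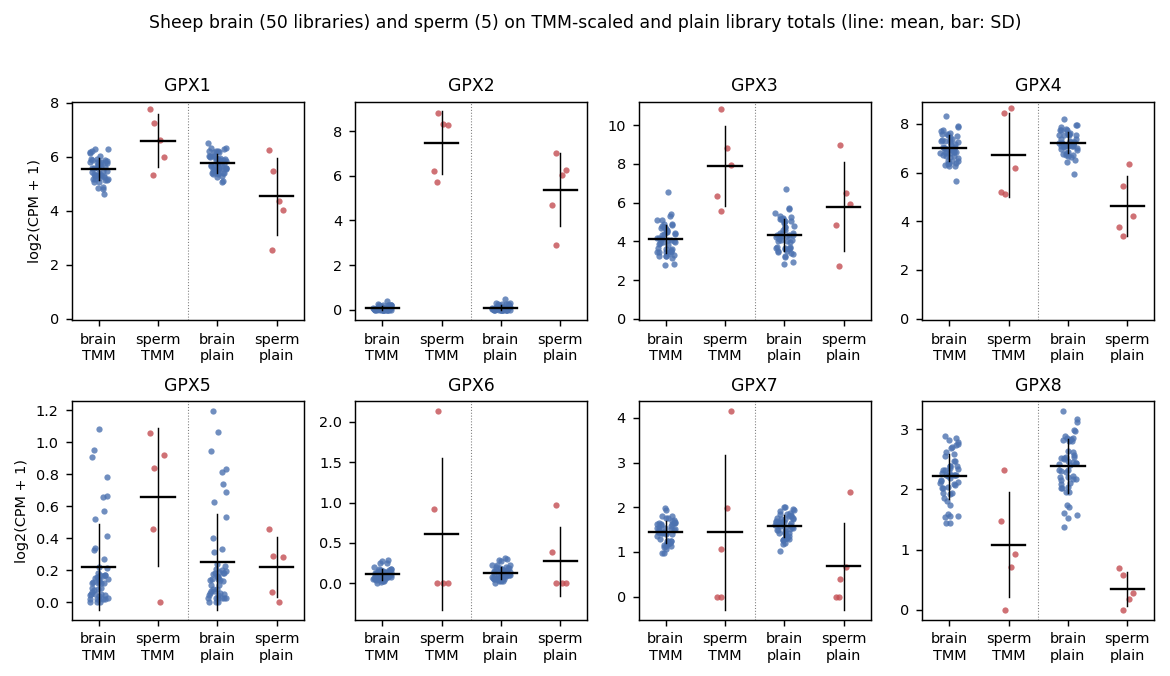
Levels of each member in the 50 sheep brain and 5 sperm libraries on the TMM scale and on plain library totals (vertical axes, log2 of CPM + 1, a panel per gene), with points for libraries, lines for means and bars for SD. GPX2 in sperm is far above brain on both scales, while mean GPX1 is at 115 CPM in sperm by TMM and 31.7 CPM on plain totals.

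GPX2 stood further above brain in sheep sperm than any other member. The sperm of animals 687, 688, 690, 694 and 699 held 52.3, 453, 314, 72.8 and 322 CPM, from 11547 counts in all, while the 50 brain libraries held 0 to 0.288 CPM, from 186 counts in 35 libraries. Every sperm library was above every brain library, and this held for no other member on the TMM scale. Among all genes tested it held for 11.0%. Sperm exceeded brain by 12.79 ± 0.32 on the log2 scale (edgeR adjusted p = 2.49e-35), a value that ranged from 12.39 to 13.46 over 12 alternatives. The neutrophil marker sum by animal was 12796, 141380, 75422, 27905 and 51023, and the squamous epithelium sum 6400, 75740, 20362, 3891 and 17700. Animal 688 was highest in GPX2 and in both sums. By the mean log2 level over the list genes, neutrophil markers were highest in animal 694, at 7.485 against 7.03 in 688. GPX2 in animal 694 was 72.8 CPM. Squamous epithelium markers were highest in 688 by that mean too, at 7.27. The part of either marker set in the result was not tested.

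GPX3 in sperm was 46.1, 1790, 243, 80.6 and 444 CPM in the same order of animals, and 5.84 to 90.9 CPM in brain with a median of 15.8. Its log2 fold change was 5.04 ± 0.27 (edgeR adjusted p = 7.50e-23). Animals 687 and 694 lay within the brain range, and animal 688 was the highest, as it was for GPX2. Without 688 the log2 fold change was 3.62 and still called.

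GPX1 in sperm was 39.5, 153, 62.1, 220 and 97.4 CPM, and 23.9 to 77.1 CPM in brain with a median of 47.3. Animals 687 and 690 lay within the brain range, and the log2 fold change was 1.46 ± 0.18 (edgeR adjusted p = 2.50e-10). It was called under all 12 alternatives, at 1.05 to 2.16, none of which used plain totals. GPX4 in sperm was 343, 33.7, 72.01, 36.2 and 401 CPM, and 49.6 to 321 CPM in brain with a median of 126. Animals 687 and 699 were above and 688 and 694 below every brain library, so the groups overlapped in both directions. Its log2 fold change of 0.55 ± 0.27 did not pass (edgeR adjusted p = 0.0602). With upper quartile factors it was 1.38 and called (adjusted p = 4.55e-06), by limma voom it was -0.21, and without animal 699 it was -0.0091. The late spermatid and sperm markers, at 6019, 193, 2508, 669 and 6839, had the same order over the 5 animals as GPX4, and their part in its spread was not tested.

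The remaining members were low in sheep sperm. GPX5 was 0.373, 0.792, 0.896, 1.09 and 0 CPM from 28 counts, within the brain range of 0 to 1.12 CPM. The fitted log2 fold change was 2.51 ± 0.63 (edgeR adjusted p = 3.01e-04) and did not pass by limma voom (2.56, adjusted p = 0.112). GPX6 had 56 counts in sperm, in 688 at 3.38 CPM and in 694 at 0.888 CPM, with 0 in the other 3, against 265 counts in 49 of 50 brain libraries. Its fitted log2 fold change of 3.76 ± 0.47 (edgeR adjusted p = 3.09e-10) rests on those 2 libraries and was 1.63 by limma voom (adjusted p = 0.341). The GPX5 and GPX6 values carry little depth.

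GPX7 in sperm was 0, 1.08, 16.7, 0 and 2.96 CPM against 0.963 to 2.93 CPM in brain. Animal 690 alone was far above brain and animals 687 and 694 were at 0. For GPX7 the log2 fold change was 1.24 ± 0.41 (edgeR adjusted p = 0.00499), turned to -0.66 without 690, and was 0.11 by limma voom (adjusted p = 0.920). GPX8 in sperm was 3.97, 0, 0.896, 1.78 and 0.634 CPM against 1.72 to 6.44 CPM in brain. Animals 687 and 694 lay within the brain range and the other 3 below it. For GPX8 the log2 fold change was -1.22 ± 0.36 (edgeR adjusted p = 0.00174). It was not called with RLE factors (-0.85), with upper quartile factors (-0.34), by DESeq2 (-0.87), by limma voom (-1.96, adjusted p = 0.0699) or without animal 688 (-0.87), and it was -2.10 and called without animal 687.

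**Figure D4:**
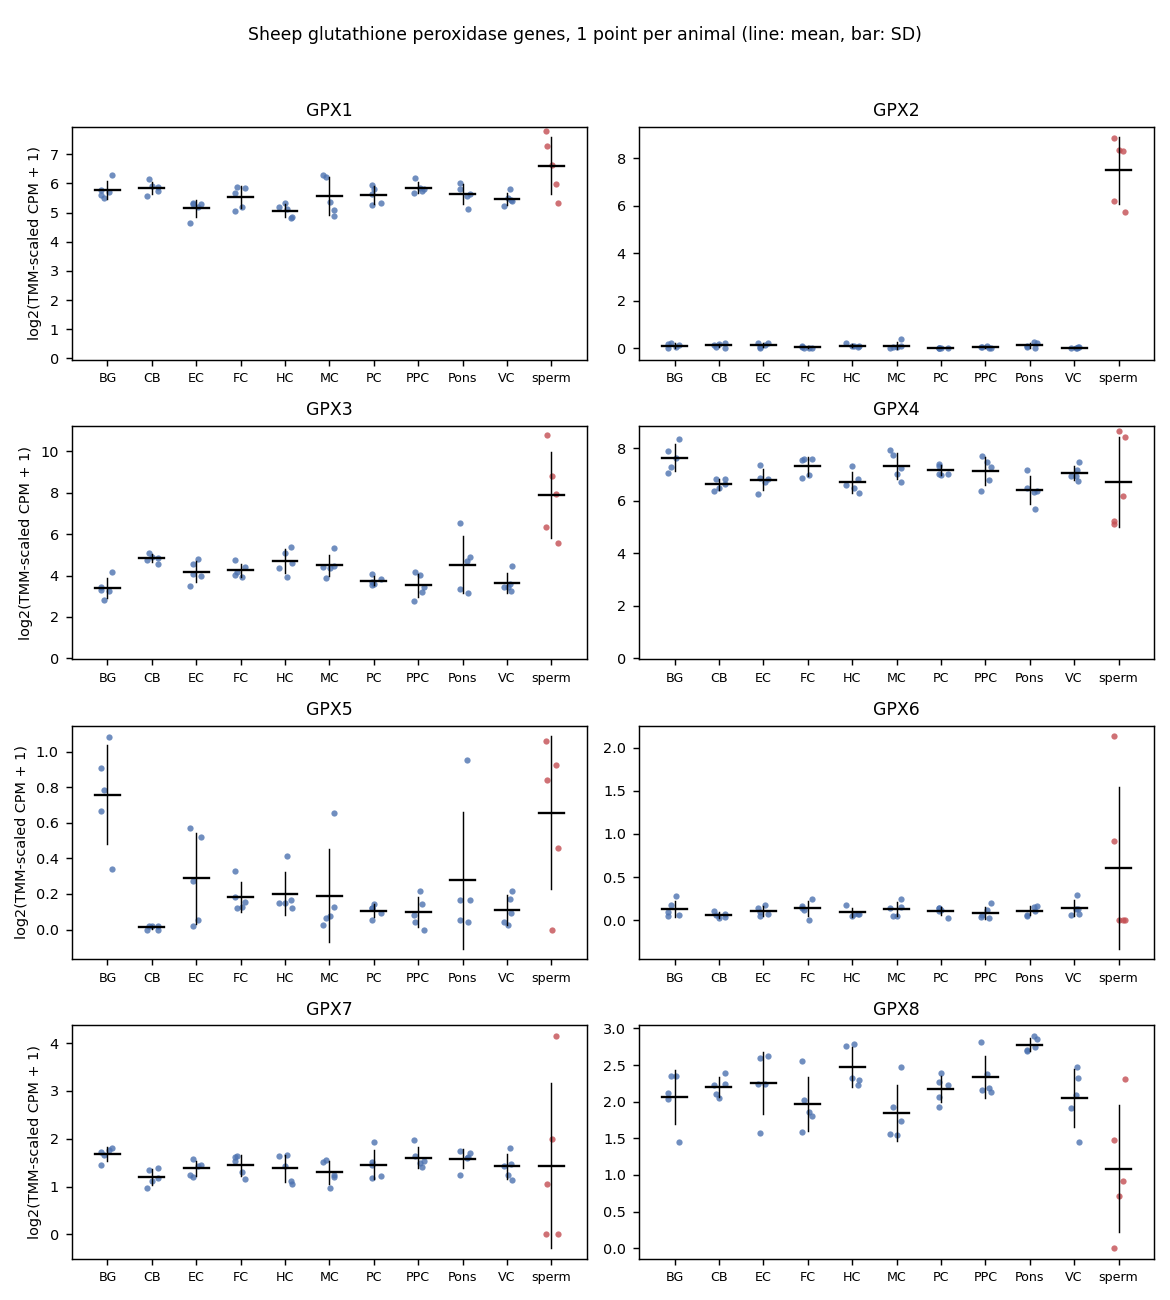
Levels of the 8 members in the 10 sheep brain regions and in sperm (vertical axes, log2 of TMM-scaled CPM + 1, a panel per gene, a point per animal, lines for means and bars for SD). GPX2 is at or near 0 in all regions and between 52.3 and 453 CPM in sperm, and GPX8 in Pons lies between 5.44 and 6.44 CPM.

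The brain regions were compared with the mean of the other 9, at an adjusted p below 0.05 and a log2 fold change of at least 0.5 in either direction. A test of any difference between regions called 6 of 7 members tested, beside 76.7% of all genes. These were GPX1 (edgeR adjusted p = 0.00853), GPX2 (0.0115), GPX3 (5.01e-04), GPX4 (6.11e-04), GPX5 (2.89e-05) and GPX8 (0.00383). GPX7 was not called (0.0753), although DESeq2 (0.0385) and the replicate block (0.0142) called it, and GPX6 was too low to test. Single regions gave 12 calls, of which 5 were in Pons, 3 in basal ganglia (BG), 2 in cerebellum (CB) and 1 each in hippocampus (HC) and prefrontal cortex (PC). Of all genes 35.6% were called in Pons, 19.6% in BG, 47.3% in CB, 8.42% in HC and 5.04% in PC. No member was called in entorhinal (3.19%), frontal (5.91%), motor (2.94%), posterior parietal (7.50%) or visual cortex (4.60%). Regions next to each other in the order of mean levels overlapped for every member. Leaving out 1 animal gave 6 to 12 calls, with 6 without animal 690.

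GPX8 was highest in Pons. The 5 animals held 5.53, 6.22, 5.44, 6.44 and 5.71 CPM there, and the means of the other regions ran from 2.71 ± 1.10 in motor cortex to 4.66 ± 1.10 in HC (SD, n = 5). The log2 fold change of 0.77 ± 0.18 (edgeR adjusted p = 4.11e-04) was called under all 9 alternatives. Astrocyte markers summed to 16099 to 22201 in Pons and at most 13357 in any other region, and oligodendrocyte markers to 15998 to 78883 in Pons and at most 28852 elsewhere. By the mean of log2(CPM + 1) over the list genes, astrocyte markers were not highest in Pons. That mean was 9.34 in Pons, 9.48 in HC, 9.395 in posterior parietal and 9.38 in entorhinal cortex. For oligodendrocyte markers it was 10.17 in Pons and at most 8.30 elsewhere. The part of either marker set in the result was not tested.

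GPX4 was highest in BG and lowest in Pons. BG held 198, 153, 130, 235 and 321 CPM and Pons 88.8, 82.2, 141, 79.1 and 49.6 CPM, in the order of animals used above. The BG level was higher than the Pons level in all animals but 690. The log2 fold change was 0.74 ± 0.18 in BG (edgeR adjusted p = 0.00113), called under all 9 alternatives, and -0.61 ± 0.20 in Pons (edgeR adjusted p = 0.00991), which was lost without animal 688 (adjusted p = 0.05004) or 699 (adjusted p = 0.0700).

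GPX3 was highest in Pons and CB and lowest in BG. Pons held 9.26, 29.2, 90.9, 24.8 and 7.85 CPM, CB 29.1, 27.8, 26.1, 22.5 and 33.3 CPM, and BG 8.43, 6.08, 9.96, 8.80 and 17.2 CPM. The CB values were close together and all above BG, while Pons spread over both with animal 690 far above the rest. The log2 fold change in Pons was 1.00 ± 0.27 (edgeR adjusted p = 0.00187) and 0.12 without animal 690. Choroid plexus markers in Pons summed to 11.4 to 920, with 238 in animal 690 and 920 in 694, and their part was not tested. In CB it was 0.70 ± 0.28 (edgeR adjusted p = 0.0266), lost without 688 or 694, and in BG -0.89 ± 0.32 (edgeR adjusted p = 0.0328), lost without 687, 688, 690 or 694.

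GPX1 was lowest in HC, at 27.0, 39.3, 27.8, 35.2 and 34.0 CPM, against region means of up to 57.2 ± 8.54 CPM in CB. Its HC values lay in the lower part of the brain range and overlapped the neighbouring regions. Its log2 fold change was -0.57 ± 0.17 (edgeR adjusted p = 0.0223), lost without 687 or 690.

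GPX5 was higher in BG, at 1.12, 0.724, 0.879, 0.588 and 0.268 CPM. BG held 198 of the 604 GPX5 counts of all brain libraries and CB held 3. Its log2 fold change was 2.86 ± 0.46 in BG (edgeR adjusted p = 2.70e-06) and -4.04 ± 0.95 in CB (edgeR adjusted p = 3.20e-04), both called under all 9 alternatives. In Pons GPX5 was 0.0362, 0.124, 0.123, 0.938 and 0.0300 CPM, high in animal 694 alone. There the log2 fold change of 1.22 ± 0.52 (edgeR adjusted p = 0.0481) turned to -0.48 without 694. The calls for GPX2 rest on a few counts, 29 in Pons (1.41 ± 0.60, edgeR adjusted p = 0.0476) and 0 in PC (edgeR adjusted p = 0.0328), where 3 counts over the 5 libraries would have been 0.0104 CPM. The Pons call of GPX2 was lost under 4 of 8 alternatives and the PC call under 4 of 8. CB, HC and entorhinal cortex held 30, 30 and 29 GPX2 counts and were not called, at log2 fold changes of 1.23, 1.19 and 1.29. The GPX2 level was thus not particular to Pons.

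**Figure D5:**
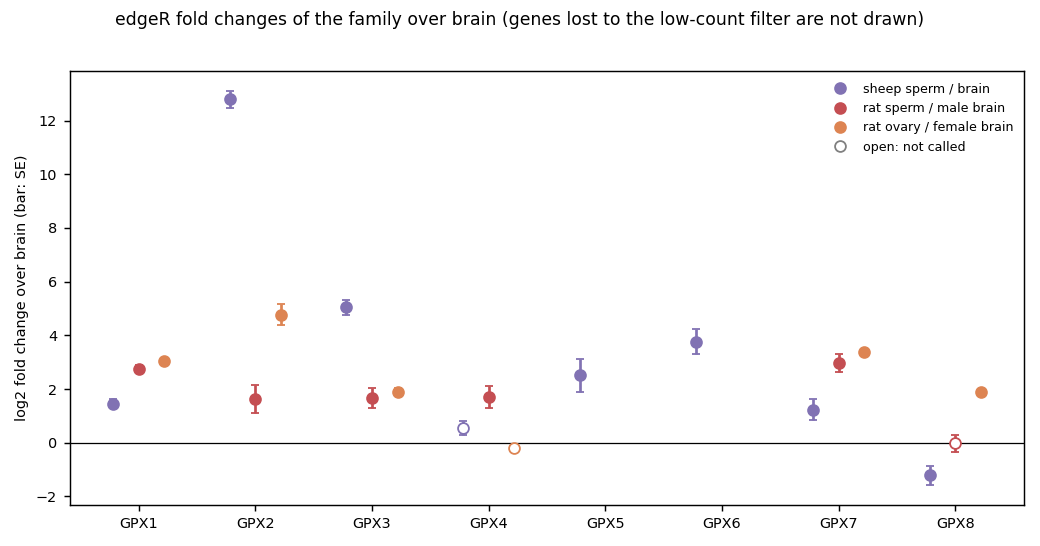
edgeR log2 fold changes of the members in sheep sperm, rat sperm and rat ovary, each against brain of the same species and sex (vertical axis, log2 fold change with SE bars, horizontal axis, gene), with open points for genes not called. GPX2 lies at 12.79 in sheep sperm, 1.62 in rat sperm and 4.78 in ovary, and GPX1 is called higher in all 3.

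The sperm to brain difference was compared between species in 1 fit on the 15703 symbols found in both tables, where the counts of a sheep's 10 regions were added up. The term differed from 0 for GPX1, GPX2 and GPX3, and species and preparation of the libraries cannot be told apart in it. Of the genes tested 23.9% were called more positive and 38.4% more negative in sheep. GPX2 was more positive in sheep by 10.63 ± 1.07 (edgeR adjusted p = 3.43e-11) and GPX3 by 3.21 ± 0.84 (edgeR adjusted p = 0.00103) on the log2 scale, and both were called under all 10 alternatives. Without sheep 688 the GPX3 term was 1.90. GPX1 had -1.31 ± 0.35 (edgeR adjusted p = 0.00127), which was -0.37 with RLE factors, -0.58 with upper quartile factors and -0.37 by DESeq2, and then not called. The split of all genes, 3619 more positive and 5827 more negative, became 5044 and 3978 with RLE factors, 4766 and 4376 with upper quartile factors and 5530 and 4105 by DESeq2, which moved the median of all genes by 0.92, 0.77 and 0.94.

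The other members did not pass between species. GPX4 had -1.29 ± 0.83 (edgeR adjusted p = 0.170) and 0.15 without rat sperm libraries 3, 7 and 14. GPX7 had -1.68 ± 0.91 (edgeR adjusted p = 0.104) and was called without sheep 690 (-3.65) and without those rat libraries (-2.05). GPX8 had -1.28 ± 0.77 (edgeR adjusted p = 0.142) and was called without sheep 687 (-2.01) and without those rat libraries. GPX5 (-1.06) and GPX6 (-0.99) rested on the few counts given above, and the GPX6 term was -2.75 without sheep 688 and still not called.

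The genes around the family were described as 7 lists, in sheep sperm, rat sperm and ovary against brain. Of all genes tested, 74.2%, 59.1% and 56.9% were called in these comparisons in either direction. Of the ER oxidative folding list, which GPX7 and GPX8 serve, 3 of 8 tested were higher and 2 lower in sheep sperm, 6 and 1 of 8 in rat sperm and 5 and 0 of 8 in ovary, with median log2 fold changes of -0.20, 2.11 and 1.42. The medians of all genes tested were -0.42, -0.03 and 0.02. P4HB, the protein disulfide isomerase that GPX7 and GPX8 oxidize, rose in all 3 comparisons (4.17, 3.01 and 2.74 on the log2 scale). Its sheep value was 2.91 without animal 688, which held 4127 CPM against 97.0 to 1318 CPM in the other animals. PDIA6 and VKORC1 of the same list fell in sheep sperm (-2.99 and -4.08). Both rose in rat sperm (1.87 and 2.06) and ovary (1.44 and 2.03). QSOX1, a secreted sulfhydryl oxidase, rose in sheep sperm (6.39 ± 0.24) and in rat sperm (7.34 ± 0.26).

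Of the list for selenoprotein synthesis and selenium supply, 2 of 12 were higher and 6 lower in sheep sperm, 3 and 3 of 12 in rat sperm and 2 and 1 of 12 in ovary (median log2 fold changes -0.85, -0.04 and 0.02). SELENOP, the plasma carrier of selenium, had -6.16, -1.87 and 2.06, lower in both kinds of sperm and higher in ovary. LRP2, an endocytic receptor for SELENOP, rose in sheep sperm (5.81 ± 0.51; 4.84 without animal 694) and rat sperm (6.07 ± 0.26). In sheep sperm its level was low, at 2.02, 4.18 and 7.50 CPM in animals 688, 690 and 694 and 0 in 687 and 699. Of the 12 other selenoproteins, 2 were higher and 7 lower in sheep sperm. In rat sperm these numbers were 3 and 4, and in ovary 3 and 3, and the medians were -1.31, 0.14 and -0.38. SELENOW, a small muscle and brain selenoprotein, fell in all 3 comparisons (-4.43, -3.69 and -2.35). SELENOM, an ER selenoprotein, fell in rat sperm (-6.14 ± 0.56).

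Of the genes for glutathione synthesis and recycling, 4 of 12 were higher and 7 lower in sheep sperm, 5 and 3 of 13 in rat sperm and 5 and 3 of 13 in ovary (medians -1.66, 0.76 and 0.79). SLC7A11, the cystine importer, fell in all 3 comparisons (-1.68, -2.24 and -4.45), as did GGT7, of the gamma-glutamyltransferase family (-6.93, -4.14 and -5.23). GSS, glutathione synthetase, rose in rat sperm (2.62 ± 0.18), and CHAC1, which degrades glutathione, rose in sheep sperm (7.52; 4.61 without animal 688) and fell in rat sperm (-1.67) and ovary (-2.33). In sheep sperm its level was 8.82 to 115 CPM in 4 animals and 2107 CPM in 688. Of the list for lipid peroxide handling, 4 and 4 of 9 were higher and lower in sheep sperm, 6 and 2 of 10 in rat sperm and 6 and 0 of 10 in ovary (medians -0.70, 1.82 and 1.29). LPCAT3, which puts polyunsaturated fatty acids into phospholipids, rose in all 3 (1.18, 2.44 and 2.65), but its sheep value was under the size limit without animal 688 (0.98) or 694 (0.93). AIFM2, a suppressor of ferroptosis that acts beside GPX4, rose in ovary (3.54 ± 0.12).

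Of 8 targets and regulators of the oxidative stress factor NRF2, 6 were higher and 1 lower in sheep sperm. In rat sperm these numbers were 2 and 1, and in ovary 4 and 0, and the medians were 1.32, -0.19 and 0.63. MAFF, a partner of NRF2 on DNA, rose in all 3 (11.30, 3.17 and 2.85). NFE2L2, which encodes NRF2 itself, rose in rat sperm (2.30 ± 0.14) and ovary (2.88 ± 0.06). In sheep sperm NFE2L2 was at -0.83 to -0.55 in the fits without 1 animal, under the size limit. NQO1 of the same list fell in sheep sperm (-4.25 ± 0.44), at 0 to 2.69 CPM. Of the peroxiredoxins, thioredoxins, catalase and superoxide dismutases, 5 of 16 were higher and 7 lower in sheep sperm, 7 and 2 of 15 in rat sperm and 5 and 0 of 15 in ovary (medians -0.45, 0.99 and 0.88). SOD2, the mitochondrial dismutase, rose in sheep sperm (4.86 ± 0.24; 3.07 without animal 688), at 55.9 to 640 CPM in 4 animals and 4641 CPM in 688. The mitochondrial peroxiredoxin PRDX3 fell there (-4.68) and rose in rat sperm (1.22) and ovary (3.28). Of the 76 listed genes tested in all 3 comparisons, 19 were called in each of them, beside 31.1% of all 13603 symbols so tested. Of these 19, 3 were higher and 3 lower throughout and 13 had mixed directions.

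The genes whose levels ran most like a member's are given as a description, by Pearson correlation of log2(CPM + 1). Over the 15 rat sperm libraries and 9386 genes, Gpx4 was most like Ankrd54 (0.990), Nxt1 (0.990) and Cep63 (0.980), and Gpx7 most like Crabp2 (0.985), Evpl (0.982) and C2h3orf33 (0.972). Gpx1 was most like Rpl27 (0.981), Gpx3 like Cltrn (0.950) and Gpx8 like Sult1a1 (0.932). These libraries share the gradient of spermatid markers given above. Over the 10 sheep region means and 8854 genes, GPX4 was most like SS18L2 (0.990), KCTD17 (0.980) and TRMT61A (0.975), GPX1 most like CDPF1 (0.954) and GPX3 most like GRIK4 (0.923). The region means share animals and scaling.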

How the data were processed

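The authors deposited raw counts per gene, 1 column per library, for 55 sheep and 58 rat libraries. Per the labels' protocols, reads were trimmed with Trimmomatic (0.39), aligned with STAR (2.7.5a), rat reads to GRCr8 and sheep reads to ARS-UI_Ramb_v3.0, with read counting by Rsubread (2.20.0). How strand and reads with several matches were handled is not given in the sources used here. The tests were run in R 4.3.3 with edgeR 4.0.16 (quasi-likelihood test, TMM factors, default low-count filter by group, prior count 0.125), and limma 3.58.1 voom with quality weights and DESeq2 1.42.0 were alternatives. An SE was obtained by dividing the size of the fold change by the root of the F statistic. The scripts were tested on simulated data.

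The members and gene lists were chosen with earlier results of these data known. Named beside the members were list genes called in all 3 tissue comparisons or among the 2 largest changes of a list in a comparison, and the 3 genes most alike in level. Leaving out rat brain libraries 1 and 4 (ribosomal RNA-like share over 80%) or rat sperm libraries 3, 7 and 14 (high spermatid markers) was chosen after seeing the data. Replicates are different animals, and brain and gonadal samples of a number come from the same animal per the labels, so the numbers pair the samples. The main fits used group only and left out this pairing, and the replicate block was an alternative. In sheep the 10 regions of an animal thus counted as separate samples, and SE and p do not measure the spread between the 5 animals alone. Deviations of same-numbered samples correlated at 0.0202 to 0.156 in sheep, -0.0785 to 0.244 for rat sperm and -0.214 to 0.0959 for ovary. Rat positions and promoters are from RefSeq on GRCr8, and sheep positions were not used here.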

Additional observations from a re-analysis of the deposited data

Results flagged for a closer look

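In groups of 5 sheep samples with a mean of at least 1 CPM, 1 sample stood apart from the other 4 in 6 of 56 groups tested by Dixon's criterion. Its nominal rate of 5% holds for independent groups of normally distributed values. These were CPM without a log, in groups that share the same animals, so the number of flags cannot be set against that rate. In sperm, animal 688 held 1790 CPM of GPX3 against 46.1 to 444 in the others, and animal 690 held 16.7 CPM of GPX7 against 0 to 2.96. In Pons, animal 690 held 90.9 CPM of GPX3 against 7.85 to 29.2, and in visual cortex animal 687 held 21.3 CPM of GPX3 against 8.43 to 11.1. For GPX1, animal 694 held 23.9 CPM in entorhinal cortex against 35.4 to 39.6, and animal 699 held 71.0 CPM in posterior parietal cortex against 50.3 to 56.0.

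The sperm to brain difference was tested between the species by the species by tissue term of the edgeR fit, as sheep minus rat on the log2 scale. GPX1 (-1.31), GPX2 (10.63) and GPX3 (3.21) passed that test. Preparation of the libraries differed between the species as well, and the 2 cannot be told apart.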

How the results depend on the processing

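Over the alternatives tried, 461 values of single members kept their direction and side of the threshold, 46 lost the call, 7 gained it and 9 turned sign. Single regions entered this tally only where the main fit called the member, so they could not gain a call. The test of any difference between regions has no direction and entered by its call alone. The values that turned sign were, in sheep sperm, GPX4 by limma voom (-0.21) and without animal 699 (-0.0091) and GPX7 without animal 690 (-0.66). In rat sperm they were GPX8 with upper quartile factors (0.093), without ribosomal RNA-like entries (0.0069) and without libraries 3, 7 and 14 (0.23). Without those 3 libraries, GPX1 in ovary against sperm (-0.11) and GPX4 between species (0.15) turned as well, and GPX5 in Pons turned without animal 694 (-0.48). Leaving out 1 animal gave -0.0091 to 0.79 for GPX4 and -0.66 to 1.58 for GPX7 in sheep sperm, and -0.48 to 1.81 for GPX5 in Pons. The cause was not tested. The number of members called in sheep sperm went from 7 to 3 by limma voom, and in rat sperm from 5 to 3 with the replicate block for the animal. It went from 3 to 5 in ovary against sperm without the low-count filter, and from 3 to 5 between species without rat sperm libraries 3, 7 and 14. Leaving out 1 animal gave 6 to 12 calls over the regions, 6 to 7 in sheep sperm and 3 to 4 between species. With the replicate block, the paired fits called 7 members in sheep sperm and 11 over the regions, and 5 in ovary against brain. Over all genes, the calls went from 12111 to 22067 without the filter and 18371 by DESeq2 in rat sperm, from 11832 to 18799 without the filter in ovary, from 9971 to 19449 and 16112 in ovary against sperm, and from 37 to 153 by DESeq2 and 74 without brains 1 and 4 between the sexes. Genes at few counts, GPX5 and GPX6 in both species and GPX2 in brain, are limited by depth.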
